A study of Mus musculus with 8 samples.

Results

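The 9 genes described here code for the receptor of insulin-like growth factor 1 and for the proteins that carry its signal through phosphoinositide 3-kinase (PI3K): Igf1r, Irs1, Irs2, Pik3cd, Pik3r1, Pik3ip1, Inpp5d, Akt1 and Akt2. They are a list of pathway genes given by name, out of 14389 genes with a value above 0 in at least 1 pre-B library. Their transcripts were followed by RNA-seq of sorted pre-B cells (B220+ IgM-), and their accessible regions by Omni-ATAC-seq, which marks open chromatin by transposase insertion, in sorted LSK cells (Lin- Sca1+ cKit+), the bone marrow fraction that holds the hematopoietic stem cells. Each assay had 2 WT and 2 Dido1∆E16 libraries.

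The Dido1∆E16 mice were Dido1 flE16/∆E16; R26R-EYFP; iCre Vav1, and the controls, called WT, were littermates of the genotype Dido1 flE16/+; R26R-EYFP; iCre Vav1, all young adults of the C57BL/6 strain. Both groups therefore carried a floxed exon 16 of Dido1, the reporter and the recombinase, and the controls, which lose 1 copy of the exon in blood cells, are not untouched animals. Vav1-driven Cre acts across the hematopoietic lineage, so LSK cells and pre-B cells had both passed through its action. The LSK libraries hold no RNA, so their sort was not checked against marker transcripts. Pre-B RNA came from pools of mice. Nothing in the labels gives the litter or day of a library, so the p-values below measure the spread between these libraries, which may be in part technical.

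In a resting cell PI3K is held by its regulatory subunit. When IGF1 binds its receptor, a tyrosine kinase, the docking proteins IRS1 and IRS2 are phosphorylated and recruit PI3K, whose product PIP3 brings AKT to the membrane. AKT restrains FOXO factors and activates mTOR. In B-cell precursors the same enzyme is driven by the pre-B cell receptor, chiefly through the leukocyte catalytic subunit p110δ, and it sets the balance between growth of large pre-B cells and light chain rearrangement in small ones.

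The deleted exon was checked first. The terminal exon of Dido1 (chromosome 2, 180657963 to 180662583, mm10) had a coverage, scaled to TPM, of 24.6 and 21.8 in the WT pre-B libraries and of 0.295 and 0.0843 in the Dido1∆E16 libraries, as their labels say. TPM is a transcript's share of a library's transcripts after division by transcript length, scaled to the same total in every library. The pre-B libraries held from 1121 to 1635 Mb of aligned bases over transcripts. Pax5, the factor that holds cells in the B lineage, stood between 786 and 835 TPM in all of them. The sort gate also admits pro-B cells, and 5 of 7 pro-B and large pre-B markers, Kit, Dntt, Igll1, Vpreb1 and Erg, had no WT library above a Dido1∆E16 library. Il7r and Il2ra overlapped between genotypes. Of all 11887 genes tested, 27.1% lay above in this way and 15.6% below. The 7 pro-B and large pre-B markers summed to between 672 and 995 TPM in WT and to between 1876 and 2690 TPM in Dido1∆E16 libraries. Neutrophil and monocyte markers summed to 247 and 2219 TPM in WT and to 1080 and 9777 TPM in Dido1∆E16 libraries, and of the erythroid markers, of which Hba-a1, Hbb-bt and Car1 were at 0, the sums were 340 and 951 against 755 and 8746 TPM. Proliferation genes were lowest in WT replicate 2, with a sum of 138 TPM against 1319 in WT replicate 1 and 470 and 633 in the Dido1∆E16 libraries. Of 8 T and NK markers, 4 were above 0, and the sums did not exceed 26 TPM, with Cd3e and Cd3g at 0 throughout. Mature B markers summed to 3531 and 3539 TPM in WT against 4550 and 5379 TPM, and plasma cell markers to 723 and 908 against 665 and 594 TPM. The part of these differences in the results below was not tested. In such bulk RNA, fewer cells of a type and less RNA per cell cannot be told apart.

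The sequences that carry the chromatin results are shown first, 300 bases each on the plus strand of GRCm38 (mm10), read from the RefSeq assembly. Each is centred on the part that lay under the MACS2 peaks of the libraries. Capitals mark matches, on either strand, to any of 3 motifs that were searched. These were AACTTT, then a forkhead motif with the letters GTAAACA, and last an E-box with the letters CACGTG. No letters of 1 motif were counted for another. Around Igf1r, the first window lies just upstream of the start site, the next pair in the intron between exon 2 and exon 3 where only WT libraries had peaks, and the fourth in the same intron where all 4 libraries had one. The Irs1 window lies in the single intron of that gene and was under a peak in all 4 libraries.
Igf1r upstream, chr7:67951670-67951969: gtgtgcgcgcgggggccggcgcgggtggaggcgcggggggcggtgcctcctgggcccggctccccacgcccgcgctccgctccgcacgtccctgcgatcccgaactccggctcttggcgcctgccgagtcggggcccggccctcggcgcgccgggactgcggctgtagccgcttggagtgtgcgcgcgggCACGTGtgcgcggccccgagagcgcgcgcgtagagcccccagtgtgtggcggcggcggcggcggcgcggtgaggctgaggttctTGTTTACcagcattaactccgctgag
Igf1r intron, WT only, chr7:68062889-68063188: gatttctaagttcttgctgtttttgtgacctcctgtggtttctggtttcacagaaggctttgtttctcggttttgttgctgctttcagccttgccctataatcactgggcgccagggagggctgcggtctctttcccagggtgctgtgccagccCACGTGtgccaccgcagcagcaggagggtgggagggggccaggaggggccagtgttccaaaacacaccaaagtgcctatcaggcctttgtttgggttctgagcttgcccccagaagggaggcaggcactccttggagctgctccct
Igf1r intron, WT only, chr7:68070638-68070937: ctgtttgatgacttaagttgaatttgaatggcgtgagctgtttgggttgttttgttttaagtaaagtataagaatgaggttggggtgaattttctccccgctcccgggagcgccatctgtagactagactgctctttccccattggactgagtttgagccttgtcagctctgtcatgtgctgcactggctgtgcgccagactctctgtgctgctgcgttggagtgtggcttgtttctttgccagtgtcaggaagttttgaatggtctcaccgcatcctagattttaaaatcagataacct
Igf1r intron, all libraries, chr7:68129188-68129487: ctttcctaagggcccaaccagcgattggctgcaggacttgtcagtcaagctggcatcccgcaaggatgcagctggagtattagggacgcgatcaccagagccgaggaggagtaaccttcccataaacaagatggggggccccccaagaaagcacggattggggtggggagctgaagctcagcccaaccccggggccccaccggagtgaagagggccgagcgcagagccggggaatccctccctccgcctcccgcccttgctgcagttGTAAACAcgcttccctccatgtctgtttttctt
Irs1 intron, all libraries, chr1:82283127-82283426: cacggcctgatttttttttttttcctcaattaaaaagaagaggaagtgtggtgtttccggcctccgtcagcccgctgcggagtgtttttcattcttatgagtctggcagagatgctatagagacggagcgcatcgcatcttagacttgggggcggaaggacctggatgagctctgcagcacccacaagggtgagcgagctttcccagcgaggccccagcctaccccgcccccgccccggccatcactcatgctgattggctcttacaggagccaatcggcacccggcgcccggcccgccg

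The upstream window of Igf1r held 1 E-box and 1 forkhead motif, the latter on the minus strand, at a GC content of 77%. The intron window with peaks in every library held 1 forkhead motif, and the WT-only window at position 68062889 held 1 E-box. The other two had none of the 3 motifs. Over all 27 regions of the 9 genes that both WT libraries shared, each of the motifs occurred in 2 windows. Over all 26327 such regions of the genome, windows of the same length held AACTTT in 11.8%, the forkhead motif in 3.13% and the E-box in 7.63%. In RefSeq promoters of 300 bases, found for all 9 genes, AACTTT occurred in 1 (Akt2), the E-box in 2 (Irs1 and Irs2) and the forkhead motif in none, against 14.1%, 7.15% and 3.65% of 32851 promoters. These matches are letters in a window and say nothing of binding.

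No member was called by the limma test run here in pre-B cells. The study's own test of transcripts, with edgeR, lists an Igf1r transcript as higher in Dido1∆E16 cells. That transcript had a false discovery rate under 0.05 and a log2 difference above 0.6 there. Why the tests differ for Igf1r was not tested. Igf1r, the receptor, stood lowest of the 9 and was higher in both Dido1∆E16 libraries than in either WT library, while Irs1, the docking protein next to it, was lower in both. Pik3cd and Inpp5d, which code for p110δ and the phosphatase SHIP1, lay slightly above WT in both. Irs2, Pik3r1, Pik3ip1, Akt1 and Akt2 overlapped between genotypes. None of the 9 passed limma's test across 11887 genes (adjusted p under 0.05 by Benjamini-Hochberg, with a log2 difference of 0.6 or more either way), and 1, Irs1, had an unadjusted p under 0.05. Over all genes that test called 0.0252% higher and 0.0252% lower, 3 genes each way, and 8.59% were higher and 3.05% lower at an unadjusted p under 0.05. Median-centring the libraries turned the latter counts from 1021 higher and 362 lower into 816 and 564.

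Igf1r codes for the receptor tyrosine kinase that binds IGF1 and IGF2. WT replicate 1 had 2.18 TPM and WT replicate 2 had 0.781, while Dido1∆E16 replicate 1 had 3.14 TPM and Dido1∆E16 replicate 2 had 4.25. Both Dido1∆E16 libraries were above both WT libraries, at means of 3.69 ± 0.781 and 1.48 ± 0.989 TPM (SD, n = 2 each). On the log2(TPM + 1) scale the difference was 0.97 ± 0.48 (SE), with an adjusted p of 0.558 in limma. The difference ranged from 0.55 to 1.39 when each library was left out in turn, the lowest without WT replicate 2. A single transcript of 21 exons, uc009hja.1 (chromosome 7, 67952257 to 68233667, plus strand), held all of the value, at a mean depth of 1.35, 0.364, 2.04 and 1.96 reads per base in the 4 libraries in the same order. At such depth many exons were read a few times only. Of the 18 exons with a mean scaled coverage of at least 1, 11 were above both WT libraries in both Dido1∆E16 libraries and 0 were below. Over all exons of main transcripts, 34% were above in this way and 10.2% below, a background that is itself tilted upwards.

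Irs1 codes for a docking protein of the insulin and IGF1 receptors. Its TPM was 16.7 and 20.8 in WT libraries and 11.2 and 8.03 in Dido1∆E16 libraries, which did not overlap. The means were 18.8 ± 2.89 and 9.64 ± 2.27 TPM (SD, n = 2 each), a ratio of 0.513. The log2(TPM + 1) difference was -0.90 ± 0.27 (SE), with an adjusted p of 0.350 in limma. It ranged from -1.12 to -0.68 over the leave-one-out fits. Both exons of the transcript uc007brp.2 (chromosome 1, 82233105 to 82291439, minus strand) were lower in both Dido1∆E16 libraries. The first exon, which holds the coding sequence, had scaled coverages of 10.1 and 16.4 in WT against 9.30 and 7.35 in Dido1∆E16 libraries. In the last exon they were 23.5 and 25.3 against 13.2 and 8.59, a wider gap than in the first.

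Irs2, the second docking protein, had the largest SE of the 9 on the log2(TPM + 1) scale. Its TPM was 37.2 and 123 in WT against 65.8 and 45.4 in Dido1∆E16 libraries, so both mutant values lay between the WT values. The log2(TPM + 1) difference of -0.31 ± 0.63 (SE; adjusted p 0.891 in limma) became 0.54 without WT replicate 2, the library with the low proliferation markers, and -1.16 without WT replicate 1. No direction can be given for Irs2.

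**Figure D1:**
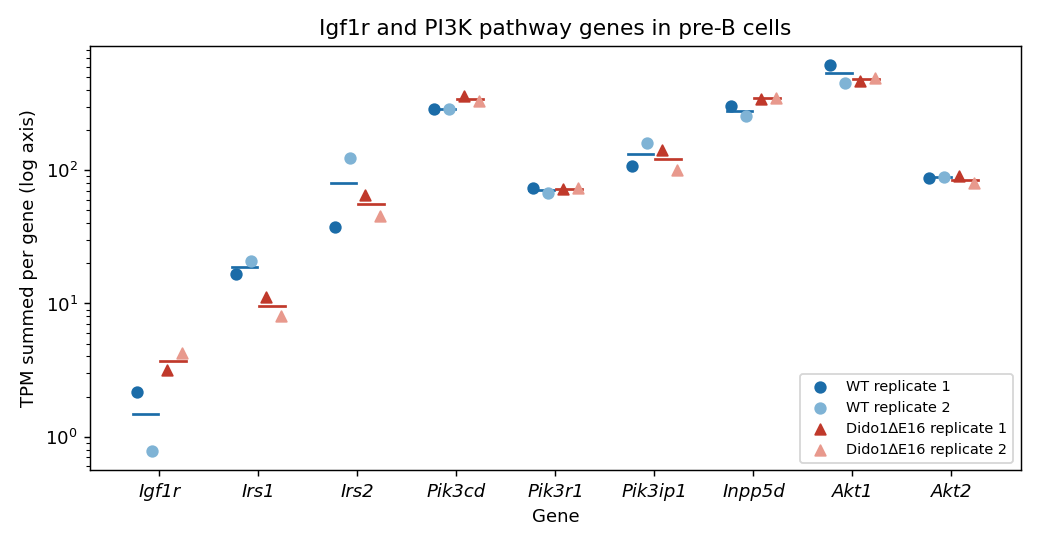
Summed TPM of the 9 genes in each pre-B library, on a log axis. Circles are WT and triangles Dido1∆E16 libraries, and horizontal lines are means of 2 libraries. Igf1r, at 0.781 to 4.25 TPM, lies below the other genes, and the genotypes separate for Igf1r, Irs1, Pik3cd and Inpp5d.

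Pik3cd codes for p110δ, the catalytic PI3K subunit of leukocytes, and was among the most abundant of the 9. The WT libraries had 289.7 and 291 TPM and the Dido1∆E16 libraries 363 and 329 TPM, with no overlap. The log2(TPM + 1) difference was 0.25 ± 0.12 (SE; adjusted p 0.526 in limma), a ratio of means of 1.19, and it was 0.17 after median-centring. Pik3r1, which codes for the regulatory subunits p85α, p55α and p50α, was at 74.0 and 67.9 TPM in WT, against 72.4 and 73.6 TPM in Dido1∆E16 libraries. Its log2(TPM + 1) difference of 0.04 ± 0.13 (SE; adjusted p 0.928 in limma) was smaller than the gap between the WT libraries, and its sign turned to -0.04 after median-centring. Along the transcripts, 21 of 25 exons of Pik3cd and 9 of 16 of Pik3r1 were above WT in both Dido1∆E16 libraries, and 0 were below in either gene, beside the 34% given for all exons.

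Of the inhibitors, Inpp5d codes for SHIP1, which removes the 5-phosphate of PIP3, and Pik3ip1 for a membrane protein that holds back the catalytic subunit. Inpp5d stood at 303 and 254 TPM in WT, against 344 and 351 TPM in Dido1∆E16 libraries. The libraries did not overlap, and the log2(TPM + 1) difference was 0.32 ± 0.14 (SE; adjusted p 0.490 in limma), which became 0.20 without WT replicate 2. In 26 of 27 exons of uc007bxc.3 both Dido1∆E16 libraries were above both WT libraries, beside 34% of all exons, and exons of 1 transcript in the same libraries are not separate observations. Pik3ip1 was at 108 and 160 TPM in WT, against 142 and 99.9 TPM in Dido1∆E16 libraries, with a log2(TPM + 1) difference of -0.14 ± 0.28 (SE; adjusted p 0.891 in limma) and overlapping genotypes. Its main transcript, uc007hsq.1, has no symbol in the deposited tables and was assigned by its overlap with the GENCODE gene. Without it and uc007hsr.1, the remaining transcripts gave a log2(TPM + 1) difference of 0.41 instead.

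Akt1 and Akt2 code for the kinases that PIP3 recruits. Akt1, the most abundant of the 9, was at 616 and 456 TPM in WT, against 471 and 493 TPM in Dido1∆E16 libraries, so that both mutant values lay inside the WT range. Its log2(TPM + 1) difference was -0.14 ± 0.19 (SE; adjusted p 0.820 in limma). Akt2 was at 88.0 and 89.6 TPM in WT, against 90.0 and 80.2 TPM in Dido1∆E16 libraries, with a log2(TPM + 1) difference of -0.06 ± 0.13 (SE; adjusted p 0.891 in limma). Each sign turned when 1 library was left out, to 0.08 for Akt1 without WT replicate 1 and to 0.02 for Akt2 without Dido1∆E16 replicate 2.

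**Figure D2:**
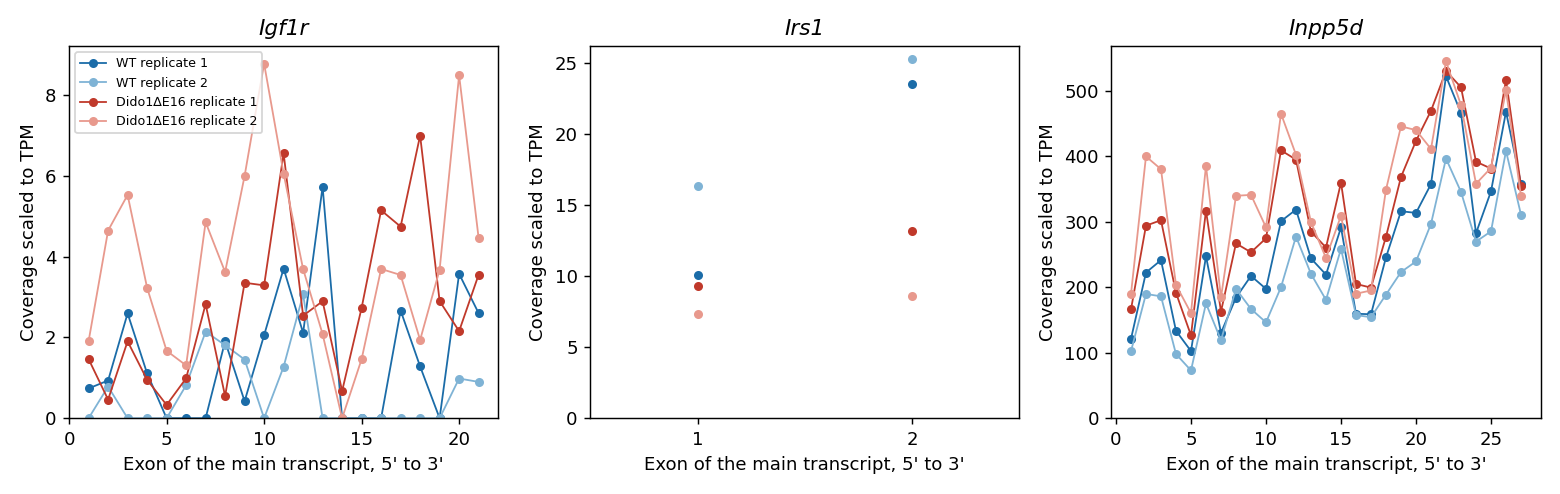
Coverage of each exon of the main transcripts of Igf1r, Irs1 and Inpp5d, scaled to TPM, per pre-B library, with exons counted from the 5′ end. Inpp5d shows both Dido1∆E16 libraries above WT in 26 of 27 exons, Irs1 shows them below in both exons, and Igf1r shows them above in 11 of the 18 exons tested.

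Read by level in WT cells, Akt1 came first, at 456 to 616 TPM. Inpp5d and Pik3cd followed and did not differ from each other beyond their spread. Pik3ip1 came next at 108 to 160 TPM, then Akt2 and Pik3r1, which were close to each other but did not overlap. Irs2, at 37.2 to 123 TPM, overlapped with Pik3ip1, Akt2 and Pik3r1. Irs1 and Igf1r were last, and Igf1r was exceeded by most of the 11887 genes tested, with 9.10% of them at or below its mean over the 4 libraries. Among 8699 other genes with a mean of at least 10 TPM, the patterns nearest to that of Igf1r over the 4 libraries were those of Pdpr, 1700020I14Rik and N4bp2. Their distances to Igf1r, between log2(TPM + 1) values centred on their means, were 0.120, 0.140 and 0.164. With 4 values per gene and so many candidates, such nearness does not show shared control, which was not tested.

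A wider list of 79 genes of the pathway, chosen by role, was read beside the 9, and 72 of them were tested. None was called in either direction by limma, and the median log2(TPM + 1) difference was 0.14, beside 0.07 for all genes tested. At an unadjusted p under 0.05, 7 were higher (9.72%) and 4 lower (5.56%), beside 8.59% and 3.05% of all genes. Both Dido1∆E16 libraries lay above both WT libraries for 26 (36.1%) and below for 16 (22.2%), where all genes gave 27.1% and 15.6%. Of the members, 3 lay above and 1 below. No test was made of how the list's shares differ from those of all genes.

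The largest differences of the list were at the ligand end. Igf1, the ligand of the receptor, was listed at 0 in both WT libraries and at 6.10 and 5.21 TPM in the Dido1∆E16 libraries, with an adjusted p of 0.201 in limma. Its adjusted p was 0.0404 when limma was run without a trend, the single call any alternative made in the list. Igfbp4, which binds IGF in the extracellular space, was at 9.92 TPM in WT replicate 1, listed at 0 in WT replicate 2, and at 66.4 and 50.4 TPM in Dido1∆E16 libraries (adjusted p 0.349 in limma). Igf2 and Igfbp7 were listed at 0 in all libraries. Among 6 receptors Kit, the receptor of stem cell factor and itself among the pro-B markers, was at 1.63 and 0.599 TPM in WT, against 9.74 and 9.06 TPM in Dido1∆E16 libraries (log2(TPM + 1) difference 2.34 ± 0.40 SE; adjusted p 0.216 in limma). Insr, the insulin receptor, was at 17.9 and 16.2 against 17.6 and 14.3 TPM, so the 2 genotypes overlapped for it.

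Of 12 adaptors, 11 were tested, with 4 above and 2 below WT in both Dido1∆E16 libraries. Beside these and the counts that follow stand 27.1% above and 15.6% below of all genes tested. Gab1, a docking protein of receptor tyrosine kinases, was at 6.60 and 4.97 TPM in WT, against 14.6 and 13.6 TPM in Dido1∆E16 libraries (log2(TPM + 1) difference 1.16 ± 0.26 SE; adjusted p 0.272 in limma). Cblb, a ubiquitin ligase that restrains receptor signals, was at 81.9 and 79.3 against 65.3 and 57.9 TPM (adjusted p 0.415 in limma). Of 8 further PI3K subunits, 4 of 6 tested lay above and 0 below. The largest difference among these 4 was that of Pik3r4, the regulatory subunit of the class III enzyme and so not of the IGF1 signal, with 44.0 and 37.6 TPM in WT and 62.0 and 60.1 TPM in Dido1∆E16 libraries (adjusted p 0.322 in limma). Among 9 lipid phosphatases, 4 lay above and 4 below. Inpp5e was at 32.8 and 25.7 against 18.2 and 17.7 TPM, and Inpp5k at 199.6 and 217 against 149.6 and 165 TPM (adjusted p 0.354 and 0.366 in limma).

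Downstream, 6 of 16 genes of the mTOR complexes and their regulators lay above and 3 below. For this and the counts that follow, the shares of all genes tested were again 27.1% above and 15.6% below. Rptor, the scaffold of mTOR complex 1, was at 40.5 and 39.0 TPM in WT, against 74.7 and 68.3 TPM in Dido1∆E16 libraries, a log2(TPM + 1) difference of 0.83 ± 0.14 (SE; adjusted p 0.216 in limma). Rps6kb2, an S6 kinase that this complex activates, was at 82.8 and 86.3 against 56.6 and 41.5 TPM, a difference of -0.79 ± 0.20 (SE; adjusted p 0.309 in limma). These 2 genes thus differed in opposite directions, and neither passed the test. Of 13 targets, 2 lay above and 5 below, with Foxo1, a forkhead factor restrained by AKT, at 303 and 393 against 298 and 301 TPM. Kinases numbered 1 above and 1 below of 4, and Akt phosphatases and inhibitors 0 above and 1 below of 6.

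**Figure D3:**
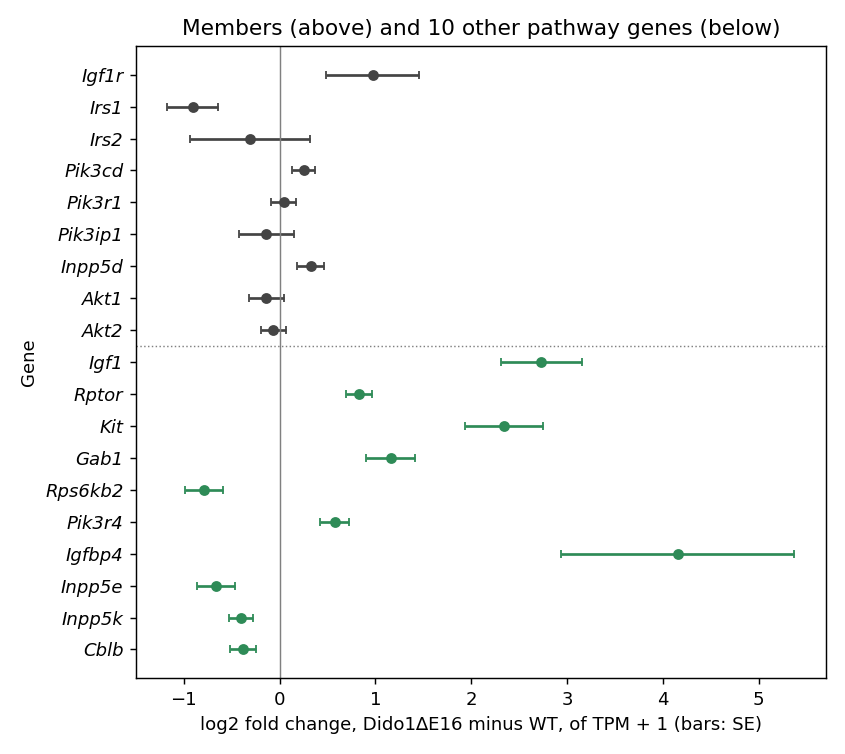
Log2 fold changes of TPM + 1, Dido1∆E16 minus WT, with their SE from limma, for the 9 genes and for the 10 genes of the wider list with the smallest unadjusted p. None passed the test over all genes. Igf1 was listed at 0 in both WT libraries and Igfbp4 in 1, so their values depend on the added 1.

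In LSK cells the 9 genes had fewer MACS2 peaks in the Dido1∆E16 libraries, 18 and 13 in all, than in the WT libraries, 27 and 64. The whole libraries differed the same way, with 13208 and 16329 against 27352 and 57739 peaks. Their tags numbered 10249256 and 52050898 in WT libraries, beside 22533077 and 44633938 in Dido1∆E16 libraries. Within each genotype the library with more tags had more peaks. Across genotypes this order did not hold, as WT replicate 1 had the fewest tags but more peaks than either Dido1∆E16 library. The part of depth in the peak numbers was not tested. Per 10000 peaks of a library, the WT libraries had 9.87 and 11.1 at the 9 genes, and the Dido1∆E16 libraries had 13.6 and 7.96, which overlap.

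By gene, the WT libraries had 7 and 15 peaks at Igf1r, where the Dido1∆E16 libraries had 2 and 4. Inpp5d had 6 and 9 against 3 and 2, Irs2 2 and 6 against 1 and 0, and Akt2 3 and 3 against 1 and 0. For these 4 of the 9 genes both Dido1∆E16 libraries lay below both WT libraries, each with an exact two-sided permutation p of 0.333, the smallest that 2 against 2 libraries can give. The same held for 35.6% of the 17769 genes with a peak, and the opposite for 0.191%. Pik3r1 had 4 and 17 peaks against 7 and 4, Pik3cd 3 and 8 against 3 and 1, and Irs1 1 and 3 against 1 and 1, and in these the genotypes overlapped. Akt1 (1 and 2 against 0 and 1) and Pik3ip1 (0 and 1 against 0 and 0) had too few peaks to compare. When the 13208 peaks of highest score were taken from every library, none of the 9 lay below, and Igf1r had 2 and 2 peaks against 2 and 1. Without WT replicate 1 all 9 lay below, as did 74.65% of all genes.

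**Figure D4:**
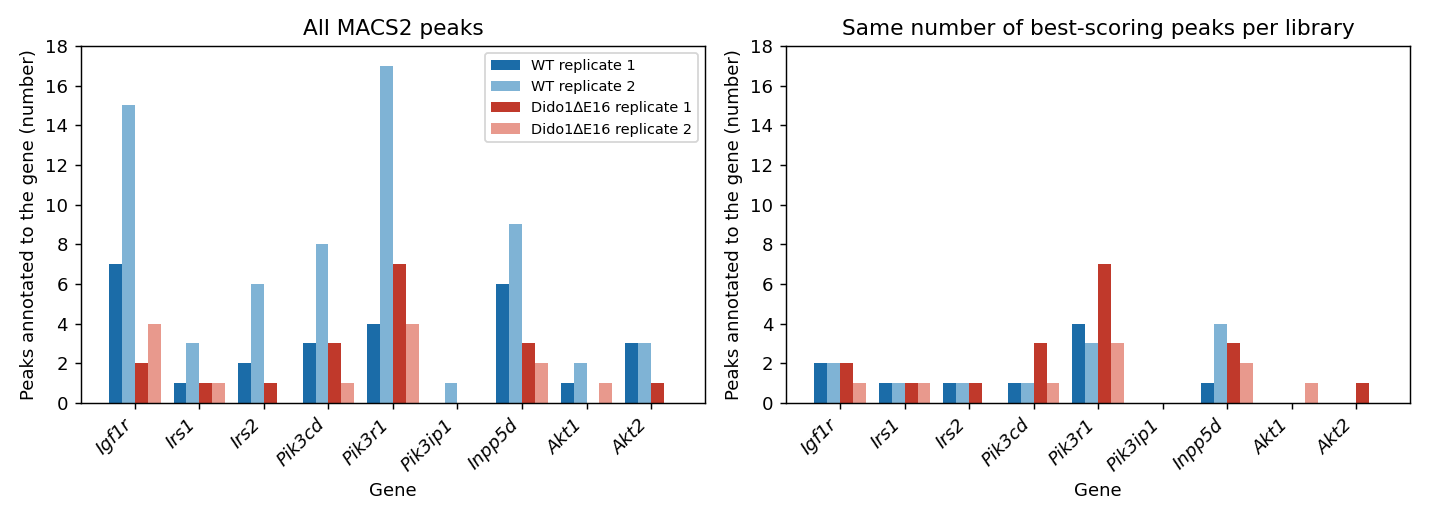
Number of MACS2 peaks annotated to each gene in each LSK library, for all peaks (left) and for the 13208 peaks of highest score (right). On the left the Dido1∆E16 bars of Igf1r, at 2 and 4, stand below its WT bars, at 7 and 15, and on the right the bars are at 2, 2, 2 and 1.

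The peaks were then followed by position. Both WT libraries shared 27 regions annotated to the 9 genes, of which 12 (44.4%) had no peak in either Dido1∆E16 library, 5 had one in 1 library and 10 in both. Of all 26327 shared regions of the genome 43.7% had none, close to the share at these genes. When each library gave as many peaks, it was 0% of 7 regions at these genes and 13.3% over the genome, and without WT replicate 1 it was 68.8% and 69.9%. Regions kept in both Dido1∆E16 libraries had the higher scores in WT. Their scores stood at a median percentile of 81.0 among the peaks of the WT libraries, and those without a Dido1∆E16 peak at 40.6. Over the genome these medians were 84.7 and 45.7.

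Igf1r had 7 of the shared regions, and 5 of them, all intronic, had no Dido1∆E16 peak. One lay in the first intron, 21429 bases from the start site, and 4 in the intron between exon 2 and exon 3, at 110633, 118397, 133131 and 150356 bases. In WT replicates 1 and 2 their deposited scores were from 18 to 36 and from 42 to 107. The region at 176844 bases, in the same intron, had a peak in all 4 libraries, with scores of 49 and 142 in WT against 43 and 34 in Dido1∆E16 libraries. It had the highest score of the Igf1r peaks in each of them. Dido1∆E16 replicate 2 had 2 further peaks in the first intron, with scores of 12 and 18. Each library also had a peak upstream of the start site, with scores of 35 and 72 in WT against 37 and 18 in Dido1∆E16 libraries, but the 2 Dido1∆E16 peaks covered different parts of it (67951648 to 67952113 in replicate 1 and 67951003 to 67951388 in replicate 2) and only the former reaches the window printed above.

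**Figure D5:**
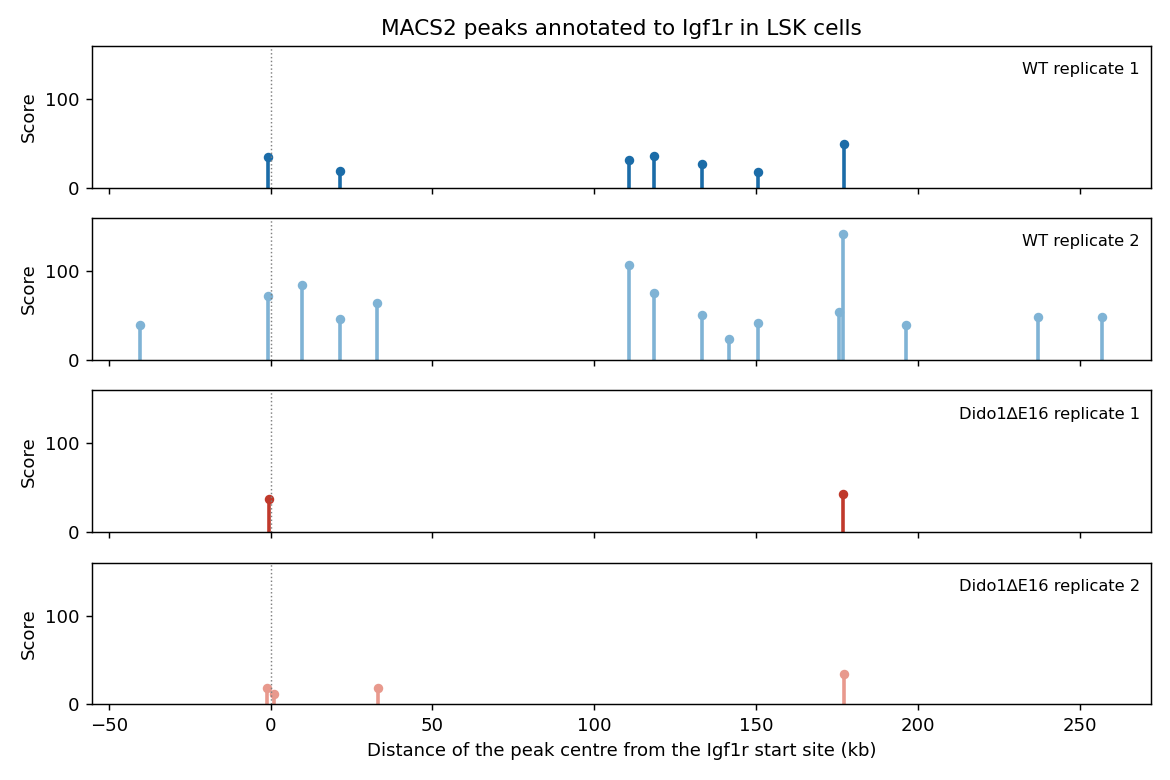
MACS2 peaks annotated to Igf1r in each LSK library, by the distance of their centre from the start site in kb, with the deposited score as height. Peaks near the start site and about 177 kb into the gene occur in all 4 libraries, while those from about 110 to 150 kb occur in the WT libraries only.

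At the other genes, the regions in all 4 libraries were the intron of Irs1 printed above (scores 45 and 218 in WT, 40 and 26 in Dido1∆E16 libraries), a region 8901 bases upstream of Pik3cd (93 and 160 against 41 and 32), 4 regions of Pik3r1 and 2 intron regions of Inpp5d. Those of Pik3r1 lay at the start site, in an intron and, for a pair, downstream of the gene. At its start site the 2 Dido1∆E16 peaks covered different parts of the WT region (101767854 to 101768478 in replicate 1 and 101767645 to 101767844 in replicate 2). The Inpp5d regions lay 6039 and 30342 bases into the gene. Akt1 had 1 shared region and Akt2 had 3, and none of these 4 had a peak in both Dido1∆E16 libraries. Pik3ip1 had no shared region.

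Within 1000 bases of the start site of the main transcript, 7 of the 9 genes had a peak in both WT libraries. Of these 7, Igf1r, Irs2 and Pik3r1 had one in both Dido1∆E16 libraries, Pik3cd, Akt1 and Akt2 in 1, and Inpp5d in neither. Over all genes, 8.18% of 8687 start sites with a peak in both WT libraries had none in Dido1∆E16 libraries, and 77.2% had one in both, beside 3 of 7 (42.9%) here. The start-site peak of Inpp5d had low scores in WT, 22 and 52, which were at percentiles 20.8 and 54.5 of those libraries. Irs1 and Pik3ip1 had a start-site peak in WT replicate 2 only. The peak of Irs2 was the strongest of the 9, with scores of 55 and 197 in WT against 98 and 35 in Dido1∆E16 libraries, at percentiles 75.7, 95.7, 89.5 and 60.7. It is not counted in the peak numbers of Irs2 above, because the deposited annotation gives it to the neighbouring gene 9530052E02Rik.

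The deposited lists of differential regions gave tag counts for 8 regions that overlapped a MACS2 peak of 6 of the genes. The lists were selected by the authors' own test on these libraries, and 99.6% and 99.9% of their 5231 and 8540 regions were lower in Dido1∆E16 libraries, so the direction at these genes is no separate finding. The log2 normalized tag count of the Igf1r intron at 68070620 to 68071084, which spans one of the WT-only windows printed above, was 5.67 and 5.45 in WT against 4.34 and 4.94 in Dido1∆E16 libraries. At the Igf1r start site (67950889 to 67952131) it was 7.46 and 7.21 against 6.71 and 6.48. The Irs1 intron region, with peaks in all 4 libraries, had 6.76 and 6.90 in WT against 5.91 and 5.96 in Dido1∆E16 libraries. Akt2 and Pik3ip1 had 1 listed region each, at their start sites, Pik3cd had 1 upstream and Pik3r1 had 2. Over the 8 regions the log2 differences were between -0.74 and -0.92.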

How the data were processed

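RNA-seq was of sorted pre-B cells and Omni-ATAC-seq of sorted LSK cells, with 2 WT and 2 Dido1∆E16 libraries each. The authors aligned reads to mm10 (BWA 0.7.15 per the labels), called peaks in each library by MACS2 and by HOMER, and annotated them with ChIPseeker. The deposited MACS2 files give a score per peak, and the deposited lists of differential regions give log2 normalized tag counts per library; their fold changes and p-values were not used. The authors ran StringTie on UCSC known genes, whose deposited output gives TPM, FPKM and coverage per transcript.

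TPM was summed per gene. Symbols came from the authors' tables and, where missing, from the GENCODE vM21 gene sharing at least 50% of a transcript's exonic bases, since 30124 of 63753 transcripts had the authors' symbol. Log2(TPM + 1) of genes with a mean of at least 1 TPM was fitted by genotype with limma 3.58.1 in R 4.3.3 (eBayes with a trend, Benjamini-Hochberg adjustment). A check of the fit on simulated data required mean estimates near the known changes. It set no requirement on how many changes were called. Regions overlapping by 1 bp (bedtools 2.31.1) counted as shared. All 9 genes are named. Of the wider list, the 10 with the smallest unadjusted p are named. Insr and Foxo1, and Pax5 as a B-lineage marker, were added after their values were seen. The members and lists were chosen with earlier results of these data known. The study's methods name 3 ATAC-seq libraries per genotype, while its results state that 2 replicates entered its differential analysis. The 2 that the labels give were used here. Region shares carry no error from replicates.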

Additional observations from a re-analysis of the deposited data

How the results depend on the processing

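No member was called under any of the alternatives run (pseudocount 0.1, no filter, FPKM, median-centring, no immunoglobulin transcripts, no trend, a replicate block, the authors' symbols alone, or each library left out). Of their transcripts, fitted singly and with each library left out, none was called. Igf1r was under the minimum on the FPKM scale and has no value there. With 2 libraries a genotype this says little about stability. The 6 calls over all genes became 0 with a pseudocount of 0.1, 0 without a filter, 90 without a trend, 0 with a replicate block and 0 without any 1 library. The wider list had 1 call without a trend and 0 otherwise. The replicate numbers are not shown to pair the samples (r = 0.052 between deviations of replicate 1 of each genotype), and the block lowered the unadjusted counts from 1021 higher and 362 lower to 812 and 257. Of 225 alternative values of the 19 named genes, 8 reversed: Pik3r1 to -0.042 after median-centring, Pik3ip1 to 0.41 with the authors' symbols alone, an alternative chosen after seeing the data, and otherwise with 1 library left out, over ranges of -1.16 to 0.54 for Irs2, -0.020 to 0.10 for Pik3r1, -0.42 to 0.14 for Pik3ip1, -0.35 to 0.081 for Akt1 and -0.15 to 0.019 for Akt2. The 4 members with fewer peaks (35.6% of all genes) became 1 with HOMER peaks (19.5%) and 0 with equal numbers of best-scoring peaks (7.16%). They became 1 when counted per 10000 peaks (20.8%) and 5 with the better-scoring 50% (27.7%). With 1 library left out they were 4 to 9 (41.6% to 74.65%). The share of shared regions without a Dido1∆E16 peak, 44.4% (43.7% of all regions), was 20.6% with HOMER (29.3%). It was 0% with equal numbers of best-scoring peaks (13.3%) and 58.3% with the better-scoring 50% (40.5%). With 1 library left out it was 44.4% to 68.8% (45.6% to 69.9%). Start-site peaks in all 4 libraries, at 3 of 7 members (77.2% of all genes), were at 6 of 8 with HOMER (86.5%). They were at 1 of 1 with equal numbers of best-scoring peaks (92.3%) and 1 of 3 with the better-scoring 50% (63.4%). Without WT replicate 1, peaks in all remaining libraries were at 3 of 9 (67.3%). With any other library left out they were at 3 to 5 of 7 (76.9% to 85.7%). The cause of these changes was not tested.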
